A study of Homo sapiens with 9 samples.

Results

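A set of 10 genes for secreted cytokines and chemokines was followed in the established human glioma line U87 after transfection with either form of a microRNA. The set was CSF3, CSF2, CXCL1, CXCL2, CXCL3, CXCL8, IL6, LIF, IL1A and IL1B. They were chosen with signals of the miR-376a*G arrays in view, so levels on those arrays are a description and carry no test. Of the 10 genes, 9 had a probe set assigned to a single symbol, with 14 such probe sets in all, out of 19775 named genes. All 9 passed the filter on dim genes, which left 12587 genes for testing. CSF2 was not analysed here.

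The series held 9 Affymetrix human arrays in 3 groups of 3. The groups were miR-376a*A and miR-376a*G, each set against miR-control. Duplexes were given at 50 nM with Lipofectamine RNAiMAX and RNA was taken after 72 h, so the controls were transfected too. The 2 active duplexes represent the unedited and the edited form of miR-376a*, a microRNA in which an adenosine of the precursor can be converted to inosine, which is read as guanosine. The labels call the replicates biological without naming cultures or days, so p-values measure only the spread between these samples, which may be partly technical.

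CSF3 encodes granulocyte colony-stimulating factor and CSF2 granulocyte-macrophage colony-stimulating factor, which drive production of myeloid cells. CXCL1, CXCL2, CXCL3 and CXCL8 are chemokines that attract neutrophils through the receptors CXCR1 and CXCR2. IL6 and LIF belong to the cytokine family that signals through the shared receptor subunit gp130 (IL6ST) and the JAK and STAT3 proteins. IL1A and IL1B are the agonists of the interleukin-1 receptor. Many genes of this kind are induced together by interleukin-1 through NF-kB and AP-1 transcription factors, and SOCS3 is a STAT3-induced inhibitor of gp130 signalling. Glioma cells are known to secrete several of these factors.

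The mature microRNA is shown because its seed, in capitals, is the part that pairs with target transcripts. RefSeq (GRCh38.p14) lists the unedited strand under its present name, at chr14:101040788-101040809 on the plus strand.
hsa-miR-376a-5p: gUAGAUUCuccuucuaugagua
Upstream sequence is shown for the 5 genes whose promoter window held an NF-kB-type motif, since NF-kB is named above as an inducer of such genes. The windows of IL1A and IL1B held no such motif, and these genes were higher on the miR-376a*G arrays too. Whether the motif bears on the signals was not tested. The 100 bases before each RefSeq start (GRCh38.p14) were taken in the direction of transcription, and capitals mark a match to the 10-base NF-kB consensus or to its core GGAATTTCC, on either strand. The positions are chr4:73869293-73869392 (plus) for CXCL1, chr4:74099196-74099295 (minus) for CXCL2, chr4:74038690-74038789 (minus) for CXCL3, chr4:73740469-73740568 (plus) for CXCL8 and chr7:22727100-22727199 (plus) for IL6.
CXCL1: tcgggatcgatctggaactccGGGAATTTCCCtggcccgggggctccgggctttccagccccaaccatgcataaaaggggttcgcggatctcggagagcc
CXCL2: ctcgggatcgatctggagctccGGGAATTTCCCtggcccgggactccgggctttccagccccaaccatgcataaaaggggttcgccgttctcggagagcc
CXCL3: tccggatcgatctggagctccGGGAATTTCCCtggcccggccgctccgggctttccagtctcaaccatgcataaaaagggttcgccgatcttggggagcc
CXCL8: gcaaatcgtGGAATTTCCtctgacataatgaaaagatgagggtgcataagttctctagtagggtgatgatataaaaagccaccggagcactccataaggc
IL6: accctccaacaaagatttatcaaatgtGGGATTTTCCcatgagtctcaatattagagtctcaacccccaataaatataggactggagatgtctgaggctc

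The 3 GRO chemokine genes CXCL1, CXCL2 and CXCL3 are close copies, and their upstream stretches were 94.1% identical between CXCL1 and CXCL2, 90% between CXCL1 and CXCL3 and 89.1% between CXCL2 and CXCL3. In each of them the GGAATTTCC core lay 70 to 78 bases before the start, or 69 to 77 in CXCL2, and the overlapping consensus matches shared it. CXCL8 held the core 83 to 91 bases before its start without a full consensus match, and IL6 held a consensus match 64 to 73 bases before its start. Over all 35116 windows of 250 upstream bases, 5.21% held the consensus and 0.413% the core. The core was searched after these windows had been read. RefSeq windows were at hand for 8 of the 10 genes, in 9 windows. The AP-1 motif TGANTCA was found in the windows of 2 of them, CXCL8 and IL1A, against 6.57% of all windows, and TATAAA in windows of the same pair of genes, against 10.7%. Of the 9 windows, 4 held the consensus and 4 the core. These matches describe the letters only.

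Before the results, 2 arrays have to be set apart. The first miR-376a*A array, by its label, had a correlation over tested genes of 0.987 and 0.990 with control replicates 2 and 3, against 0.925 and 0.934 with the arrays sharing its label. The first control array had one of 0.990 and 0.982 with replicates 2 and 3 of miR-376a*A, against 0.935 and 0.934 with the arrays sharing its label. Both arrays thus went against their labels, and whether the labels were exchanged was not tested. Group names below follow the labels. For some genes and counts, values without both arrays are given beside those with all 9. Where the setting is not named, values are with all 9 arrays. Those 2 arrays were singled out from these same data, so p-values without them are not independent of that choice. The 3 miR-376a*G arrays correlated with each other at 0.986 to 0.988.

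Values are deposited signals, whose trimmed mean was the same on every array, and differences are on the log2(signal + 1) scale. A gene was called when its limma adjusted p (Benjamini-Hochberg over all tested genes) was under 0.05. The scaling removes any change in total messenger RNA, and in these bulk samples fewer expressing cells and less RNA per cell cannot be told apart. Against control, 4205 genes (33.4%) were called in miR-376a*G cells, 2268 higher and 1937 lower. The split depends on the scale: it was 1030 higher and 2617 lower after centring each array on its median, 5556 and 953 with arrays scaled to the hybridisation controls, and 4827 and 1155 with arrays scaled to poly-A controls. Without both arrays that stood apart 56.1% of genes were called, 31.2% higher and 25.0% lower. The median difference of all tested genes was 0.12 as deposited, and under those scalings -0.12, 0.51 and 0.41.

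CSF3 had the widest gap of the set. Its signal was 52.6, 167 and 158 on the miR-376a*A arrays, 1686, 1706 and 2119 on the miR-376a*G arrays and 211, 82.3 and 68.1 on the control arrays. The lowest miR-376a*G array was 8.0 times the highest of the other 6, so the groups did not overlap. Group means were 126 ± 63.8, 1837 ± 245 and 120 ± 78.5 (SD, n = 3 each). The log2 difference was 4.10 (SE 0.50) for miR-376a*G minus control and 4.59 without both arrays that stood apart. For miR-376a*A minus miR-376a*G it was -4.02, and -3.48 without them. Within the miR-376a*A and control arrays CSF3 was low on the array labelled miR-376a*A replicate 1 and high on the one labelled control replicate 1, so the order of the single arrays ran against the labels.

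**Figure D1:**
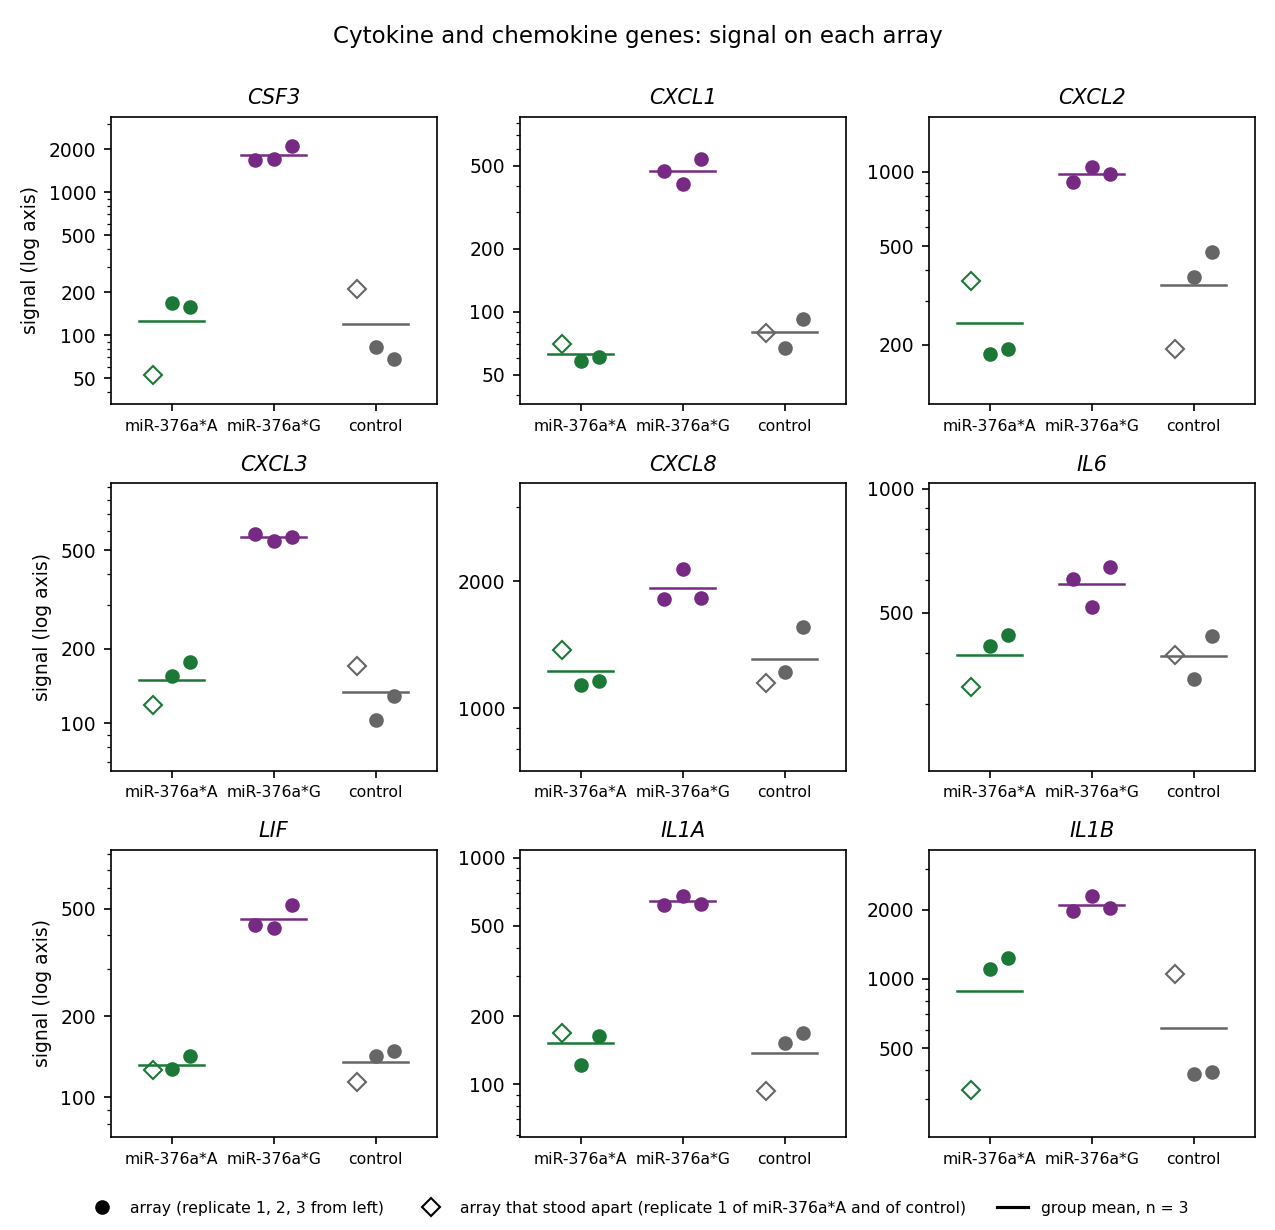
Signal (log axis) of the 9 measured cytokine genes on each array, with miR-376a*A at left, miR-376a*G in the middle and control at right; bars are group means (n = 3) and open diamonds the 2 arrays that stood apart. All 3 miR-376a*G arrays lie above all 6 others in each of the 9 panels, with CSF3 at 1686 to 2119 against 52.6 to 211 elsewhere.

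The GRO chemokine genes were also high on the miR-376a*G arrays. CXCL1 gave 70.5, 58.0 and 61.2 on the miR-376a*A arrays, 472, 409 and 536 on the miR-376a*G arrays and 79.3, 67.6 and 92.7 on the controls. CXCL3 read 118, 155 and 177 for miR-376a*A, 583, 545 and 567 for miR-376a*G, and 170, 103 and 129 for control. CXCL2 read 362.4, 184.4 and 192.3 for miR-376a*A, 906.9, 1047 and 983.7 for miR-376a*G, and 192.9, 376.2 and 476.3 for control. The miR-376a*G arrays were the high ones for all 3 genes and did not overlap the rest. Of the 3, CXCL2 spread most among the other 6 arrays, at 184.4 to 476.3.

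In log2 terms CXCL1 differed by 2.55 (SE 0.16) in miR-376a*G minus control and by -2.88 in miR-376a*A minus miR-376a*G. CXCL3 differed by 2.09 (SE 0.20) and -1.93 in the same contrasts. For CXCL2 the values were 1.58 (SE 0.35) and -2.06, or 1.21 and -2.37 without both arrays. CXCL2 also had a pair of dimmer probe sets, whose miR-376a*G minus control differences were 1.83 and 2.84, the first above its array's median on 0 arrays and the second on 1. The GRO genes are near-identical in places, and the brightest CXCL2 probe set is of the class Affymetrix marks as able to bind related transcripts, so how much signal they share was not tested.

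CXCL8, also called interleukin-8, was already bright without miR-376a*G. Its brighter probe set gave 1376, 1139 and 1160 on the miR-376a*A arrays, 1820, 2138 and 1827 on the miR-376a*G arrays and 1151, 1221 and 1558 on the controls. The other CXCL8 probe set read 695, 421 and 587 on the miR-376a*A arrays, 1676, 1824 and 1625 for miR-376a*G, and 480, 579 and 769 for control. Both put the miR-376a*G arrays above all others, but by different amounts: the miR-376a*G minus control difference was 0.57 (SE 0.13) for the first and 1.51 for the second. The size of the CXCL8 difference therefore depends on the probe set.

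The gp130 cytokines differed from each other in size. IL6 gave 331, 416 and 441 on the miR-376a*A arrays, 604, 516 and 646 on the miR-376a*G arrays and 395, 346 and 440 on the controls. LIF, which supports stem cell self-renewal and neural cell signalling, read 126, 127 and 143 for miR-376a*A, 436, 424 and 519 for miR-376a*G, and 114, 143 and 148 for control. Neither gene overlapped between miR-376a*G and the other arrays. The miR-376a*G minus control difference was 0.58 (SE 0.15) for IL6 and 1.77 (SE 0.14) for LIF, and miR-376a*A minus miR-376a*G gave -0.58 and -1.79.

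Both interleukin-1 genes were high on the miR-376a*G arrays. IL1A read 169, 122 and 164 for miR-376a*A, 616, 680 and 628 for miR-376a*G, and 93.5, 152 and 168 for control, a miR-376a*G minus control difference of 2.25 (SE 0.22). A dimmer IL1A probe set differed by only 0.56, and its lowest miR-376a*G array was 1.02 times the highest of the others. IL1B read 328, 1102 and 1236 for miR-376a*A, 1967, 2280 and 2035 for miR-376a*G, and 1047, 384 and 395 for control. IL1B thus split the miR-376a*A and control arrays into a high and a low set that cut across the labels, and its second probe set did the same at 312, 1029 and 1160, 1801, 2137 and 1847, and 998, 339 and 355 in the same order of groups. The IL1B difference was 1.95 (SE 0.52) for miR-376a*G minus control and -1.45 (SE 0.52) for miR-376a*A minus miR-376a*G, and 2.42 and -0.84 without both arrays.

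**Figure D2:**
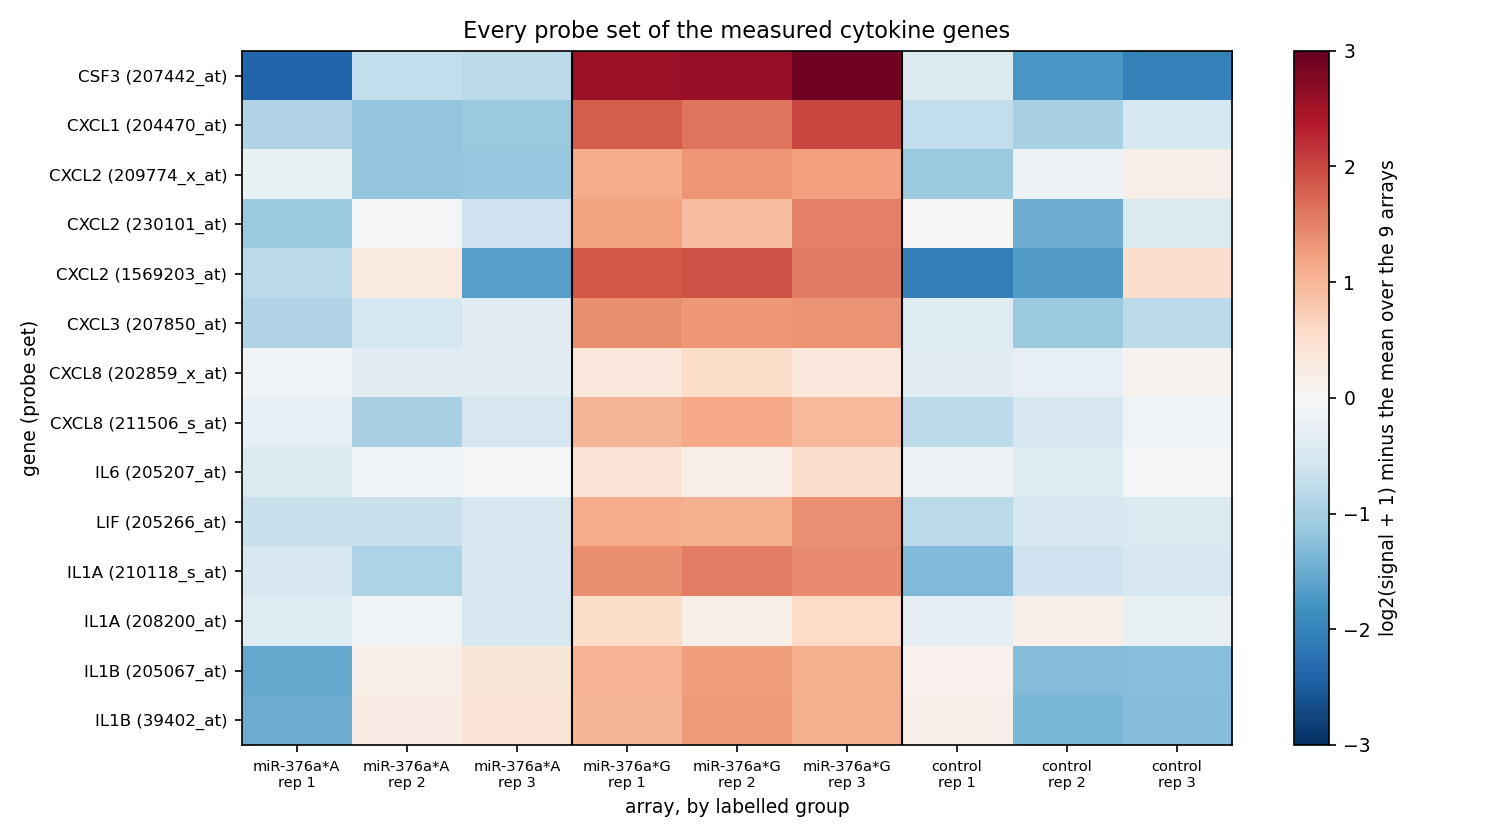
Heat map of the 14 probe sets (rows) on the 9 arrays (columns, miR-376a*A, miR-376a*G, control), coloured by log2(signal + 1) minus the row mean. The miR-376a*G columns are the highest in every row, while the CSF3, CXCL3 and IL1B rows are lower on miR-376a*A replicate 1 and higher on control replicate 1 than on the other arrays of those labels.

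Taken by probe set, all 14 had their 3 miR-376a*G arrays above the 6 others, a pattern shown by 26.4% of all tested genes. All 9 genes were called higher in miR-376a*G than in control (background 18.0% higher) and 8 were called lower in miR-376a*A than in miR-376a*G (background 21.8% lower, 38.2% in either direction), IL1B being the exception. Without both arrays all 9 were called lower in that contrast, where 59.6% of all genes were called, 25.7% higher and 34.0% lower. The genes were chosen on these arrays, so nothing is read from those counts. The median difference over the 9 genes was 1.95 for miR-376a*G minus control (0.12 over all tested genes) and -1.93 for miR-376a*A minus miR-376a*G (-0.14 over all tested genes). These contrasts share the miR-376a*G arrays.

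miR-376a*A against control is the one contrast whose difference leaves out the arrays on which the genes were chosen. Those arrays still enter its SE and p-values through the shared estimate of the spread, and also the filter and the choice of probe set. None of the 9 genes was called, and none of all 12587 genes was (0%), while 463 genes (3.68%) had an unadjusted limma p under 0.05. Differences ran from -0.47 for CXCL2 to 0.50 for IL1B, with a median of 0.00 against -0.02 for all tested genes. CSF3 differed by 0.08 (SE 0.50, limma adjusted p = 0.972), CXCL1 by -0.33 (SE 0.16, adjusted p = 0.886) and CXCL2 by -0.47 (SE 0.35, adjusted p = 0.886). CXCL3 differed by 0.17 (adjusted p = 0.889), CXCL8 by -0.09 (0.9), IL6 by 0.00 (0.994), LIF by -0.02 (0.973), IL1A by 0.17 (0.894) and IL1B by 0.50 (0.886).

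Without both arrays that stood apart, 41.9% of all tested genes were called between miR-376a*A and control, 19.0% higher and 22.9% lower. Of the 9 genes, 3 were then called higher and 1 lower. IL1B differed by 1.58 (SE 0.10, limma adjusted p = 9.05e-07), CSF3 by 1.11 (SE 0.13, adjusted p = 6.82e-05) and CXCL3 by 0.52 (SE 0.12, adjusted p = 0.00582). CXCL2 differed by -1.16 (SE 0.12, adjusted p = 2.52e-05). CXCL1 (-0.41, adjusted p = 0.0703), CXCL8 (-0.26, 0.108), IL6 (0.13, 0.45), LIF (-0.10, 0.516) and IL1A (-0.18, 0.32) were not called. A share of 4 in 9 called stands beside the background of 41.9%.

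**Figure D3:**
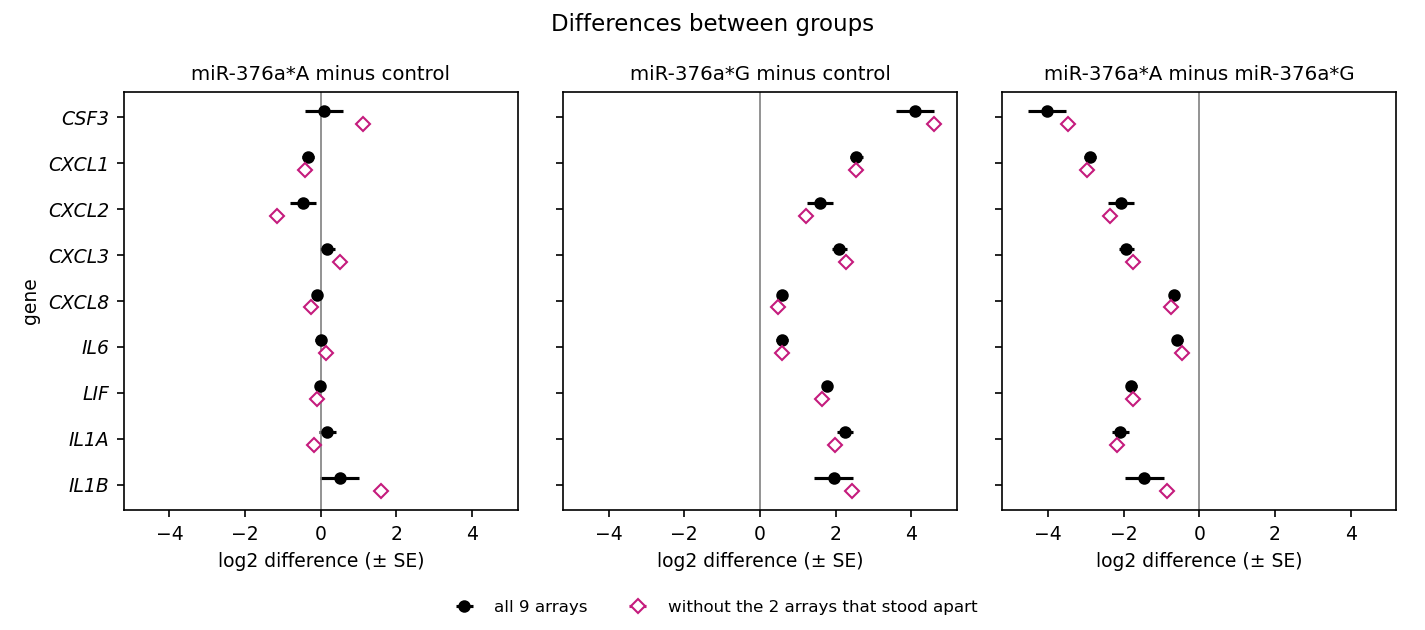
Log2 difference (± SE) of the 9 genes in 3 contrasts, with all 9 arrays (black circles) and without the 2 arrays that stood apart (open diamonds). In miR-376a*A minus control the black circles lie between -0.47 and 0.50 and the diamonds spread to -1.16 and 1.58; in miR-376a*G minus control both series lie above 0.

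The miR-376a*A and control arrays split across their labels in 5 of the 9 genes, near the 56.7% of all tested genes that did so in either direction. CSF3, CXCL3 and IL1B were higher on miR-376a*A replicates 2 and 3 and control replicate 1 than on miR-376a*A replicate 1 and control replicates 2 and 3 (background 28.1% of genes). CXCL2 and CXCL8 were lower on them (background 28.6%). CXCL1, IL6, LIF and IL1A overlapped. Pearson's r with CSF3 over the 9 arrays, which share scaling and are dominated by the gap to miR-376a*G, was 0.985 for CXCL3, 0.929 for LIF, 0.928 for CXCL1, 0.914 for IL1B, 0.904 for IL6, 0.869 for IL1A, 0.741 for CXCL8 and 0.715 for CXCL2. The tested genes most like CSF3 were SMAGP (0.995), NDE1 (0.994), SUMO3 (0.994), MRPS27 (0.994) and RPF1 (0.993).

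Few other secreted factors passed the filter. With all arrays, 33.4% of all tested genes were called in miR-376a*G against control, 18.0% higher and 15.4% lower. Of 11 other CXC chemokines, 3 passed the filter and 1 was called in miR-376a*G against control. That was CXCL5, a neutrophil chemokine that lies in the same chromosome 4 cluster, with 64, 85.6 and 73 on the miR-376a*A arrays, 244, 214 and 241 on the miR-376a*G arrays and 138, 86.4 and 102 on the controls. It rose by 1.12 (SE 0.19, limma adjusted p = 0.00203), with no overlap between miR-376a*G and the rest. CXCL6, PF4V1, PF4 and PPBP lie in that cluster too and were below the filter. CXCL12 and CXCL14 were not called (differences of -0.91 and -0.12). CXCL12 read 28.6, 130 and 121 for miR-376a*A, 29.7, 22.3 and 28.4 for miR-376a*G and 131, 30.6 and 32.8 for control, so its high arrays also cut across the labels, and a second CXCL12 probe set averaged 5.37 in miR-376a*G and 89.5 in control (-2.98, no overlap).

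CCL2, a monocyte chemokine and the only 1 of 11 CC and CX3C chemokines above the filter, read 252, 67.8 and 57.4 for miR-376a*A, 146, 172 and 154 for miR-376a*G and 94.0, 205 and 253 for control. Its difference of -0.11 between miR-376a*G and control was not called (adjusted p = 0.896), but it was -0.53 and called lower without both arrays (adjusted p = 0.00538). Among 7 other IL-6 family cytokines 3 were tested and 0 called by limma in miR-376a*G against control (background 33.4%). At an unadjusted limma p under 0.05 the count was also 0. IL11, a gp130 cytokine, read 18.0, 275 and 272 for miR-376a*A, 45.8, 41.7 and 41.9 for miR-376a*G, and 267, 23.9 and 25.4 for control, the crossed order of IL1B. CTF1 (1.29, adjusted p = 0.252) and CNTF (0.47, adjusted p = 0.204) were not called. Of 10 other colony-stimulating and haematopoietic factors 4 were tested and 0 called by limma (background 33.4%), with 1 lower at an unadjusted p under 0.05. The 4 were KITLG (-0.60), IL15 (-0.35), CSF1 (-0.50) and IL7 (-0.17). All 4 ran in crossed order, as 56.7% of all tested genes did in either direction. CSF1 and IL15 were higher, and IL7 and KITLG lower, on miR-376a*A replicates 2 and 3 and control replicate 1. Without both arrays, 3 IL-6 family genes rose and 2 haematopoietic factors fell in miR-376a*G, against the background of 31.2% and 25.0%.

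The receptors for these factors ran the other way. Of 13 receptor and decoy genes, 8 passed the filter, and in miR-376a*G against control 6 of them fell and 1 rose (background 15.4% lower, 18.0% higher). Their median difference was -0.75, against 0.12 for all tested genes. Without both arrays the counts were the same, while the background was 25.0% lower and 31.2% higher. LIFR, the receptor subunit for LIF, gave 103, 180 and 186 on the miR-376a*A arrays, 27.5, 35.7 and 22.5 on the miR-376a*G arrays and 196, 114 and 118 on the controls. It fell by 2.26 on the log2 scale (SE 0.30, limma adjusted p = 0.00057), and of its 5 probe sets 4 were lower in miR-376a*G without overlap with control.

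IL1R1, the signalling receptor for both interleukin-1 proteins, read 395, 455 and 456 for miR-376a*A, 177, 185 and 212 for miR-376a*G and 491, 369 and 337 for control. It fell by 1.04 (SE 0.16, adjusted p = 0.00112), with all miR-376a*G arrays below the rest. IL6ST, which encodes gp130, fell by 0.80 (adjusted p = 0.00105) in its brightest probe set. Of its dimmer probe sets, 3 above the median on all 9 arrays differed by 0.09 to 0.26 with overlap. Another above it on all 9 differed by -0.36 without overlap. The rest, above the median on 0 arrays, differed by 0.14 and 0.64 with overlap. The sign turned when all IL6ST probe sets were averaged. OSMR, the oncostatin M receptor subunit, fell by 0.71 (adjusted p = 0.00362), a call lost after scaling to the hybridisation controls, and 1 of its dimmer probe sets differed by 0.02 with overlap.

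IL6R, the interleukin-6 binding subunit, read 358, 156 and 170 for miR-376a*A, 95.0, 91.7 and 88.2 for miR-376a*G and 148, 270 and 330 for control. It fell by 1.36 (adjusted p = 0.0174), and that call was lost without any 1 of the miR-376a*G arrays and without control replicate 2 or 3. IL1RAP, the interleukin-1 receptor accessory protein, fell by 0.70 (adjusted p = 0.0297), a call lost in 8 of 21 alternatives, and a second probe set differed by 0.88 in the opposite direction with overlap. CSF3R, the receptor for the CSF3 protein, was dim at 9.53 to 35.6 and rose by 0.92 (adjusted p = 0.0433), a call lost in 13 of 21 alternatives. CXCR1 and CXCR2 did not pass the filter, at 1.06 to 2.93 and 0.463 to 5.06.

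In miR-376a*A against miR-376a*G, 6 of the 8 tested receptor genes were higher in miR-376a*A (background 16.4%) and 0 were lower by limma, also at an unadjusted p under 0.05. LIFR differed by 2.39 (adjusted p = 0.00037) and IL1R1 by 1.18 (adjusted p = 0.00051). After scaling to the hybridisation controls IL6ST, OSMR, IL6R and IL1RAP lost their calls, leaving 2 of the 6, and OSMR and IL1RAP turned sign. After scaling to the poly-A controls OSMR, IL6R and IL1RAP lost theirs. In miR-376a*A against control none of the 8 was called by limma, 1 being higher at an unadjusted p under 0.05, and without both arrays 4 were higher and 1 lower (background 19.0% higher, 22.9% lower).

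**Figure D4:**
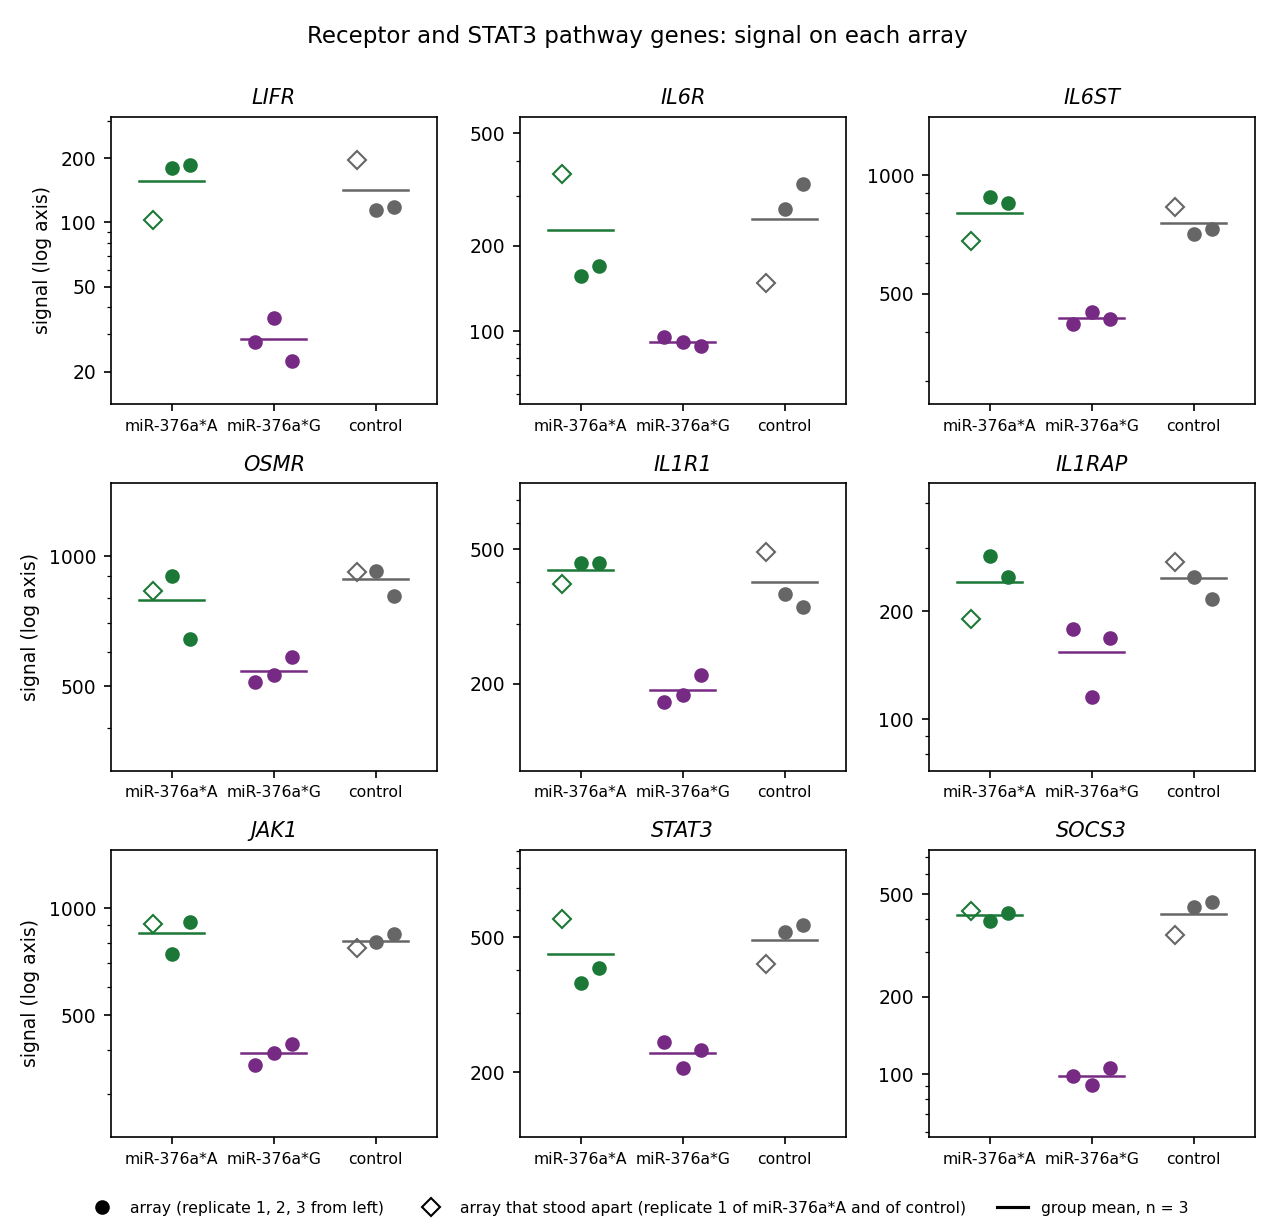
Signal (log axis) of 6 receptor genes and of JAK1, STAT3 and SOCS3 on each array, with miR-376a*A at left, miR-376a*G in the middle and control at right; bars are group means (n = 3) and open diamonds the 2 arrays that stood apart. The genes shown were picked from those called lower in miR-376a*G against control, as 15.4% of all tested genes were. Tested genes of these lists that were not called lower are left out. The miR-376a*G arrays are the lowest in all 9 panels, with SOCS3 at 91.4 to 106 against 348 to 467 elsewhere.

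Of 15 listed genes of the STAT3 pathway, 13 were tested, and 4 fell and 0 rose by limma in miR-376a*G against control (background 15.4% lower), with a median of -0.25. At an unadjusted p under 0.05 the counts were 5 lower and 1 higher. Without both arrays that stood apart 4 fell and 1 rose by limma, against a background of 25.0% lower and 31.2% higher. SOCS3, the feedback inhibitor of gp130 signalling, gave 433, 395 and 425 on the miR-376a*A arrays, 98.7, 91.4 and 106 on the miR-376a*G arrays and 348, 448 and 467 on the controls. It fell by 2.07 (SE 0.14, adjusted p = 1.8e-05) and kept its call in all 21 alternatives. The dimmer SOCS3 probe sets differed by -1.30 without overlap with control, and by -0.28 and -0.35 with overlap, so the size depends on the probe set. JAK1, the kinase bound to gp130, read 905, 743 and 916 for miR-376a*A, 363, 392 and 416 for miR-376a*G, and 776, 806 and 847 for control, and fell by 1.05 (adjusted p = 0.00015). STAT3 itself read 567, 366 and 407 for miR-376a*A, 245, 206 and 233 for miR-376a*G, and 416, 518 and 542 for control, and fell by 1.10 (adjusted p = 0.00168). SOCS1 fell by 0.86 (adjusted p = 0.0355), a call lost in 8 of 21 alternatives, and a dimmer probe set of it went the other way, higher by 0.97 in miR-376a*G without overlap with control.

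NF-kB subunits and feedback genes were mixed. Of 17 listed, 15 were tested, 6 rose and 2 fell in miR-376a*G against control (background 18.0% higher, 15.4% lower), with a median of 0.48. The count of risers was 2 after centring arrays on their medians and 10 after scaling to the hybridisation controls. Over all tested genes the count called higher moved the same way, from 2268 as deposited to 1030 and 5556. Without both arrays 7 rose and 3 fell, where the background was 31.2% higher and 25.0% lower. NFKBIZ, an inducible nuclear cofactor of NF-kB that takes part in inducing IL6, read 545, 371 and 397 for miR-376a*A, 1056, 1145 and 1155 for miR-376a*G and 400, 459 and 537 for control, and rose by 1.27 (SE 0.16, adjusted p = 0.00047). RELB, a subunit of the non-canonical pathway, read 54.0, 77.1 and 64.8 for miR-376a*A, 121, 133 and 141 for miR-376a*G and 61.1, 60.8 and 59.4 for control, and rose by 1.11 (adjusted p = 0.00072). NFKBIB, NFKB2, IKBKG and NFKBIE rose by 0.54 to 0.92, calls lost in 6 to 10 of 21 alternatives. TNIP1, an inhibitor of the pathway, fell by 0.96 (adjusted p = 0.00077) and the kinase gene IKBKB fell by 0.62 (adjusted p = 0.00819), a call lost after scaling to either control set and with its probe sets averaged.

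None of the other NF-kB target genes was called higher with all arrays. Of 11 tested, 0 rose and 2 fell in miR-376a*G against control by limma (background 18.0% higher, 15.4% lower). At an unadjusted limma p under 0.05, 3 were higher. TNFAIP2 fell by 1.27 (adjusted p = 0.00016), a call lost when its probe sets were averaged, and MMP3, a matrix protease, fell by 0.47 (adjusted p = 0.0135), a call lost after scaling to either control set. TRAF1 (0.66, adjusted p = 0.0611) and MMP9 (0.41, adjusted p = 0.0909) were not called. Without both arrays 6 rose and 3 fell (background 31.2% and 25.0%), so this count rests on the 2 arrays that stood apart.

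**Figure D5:**
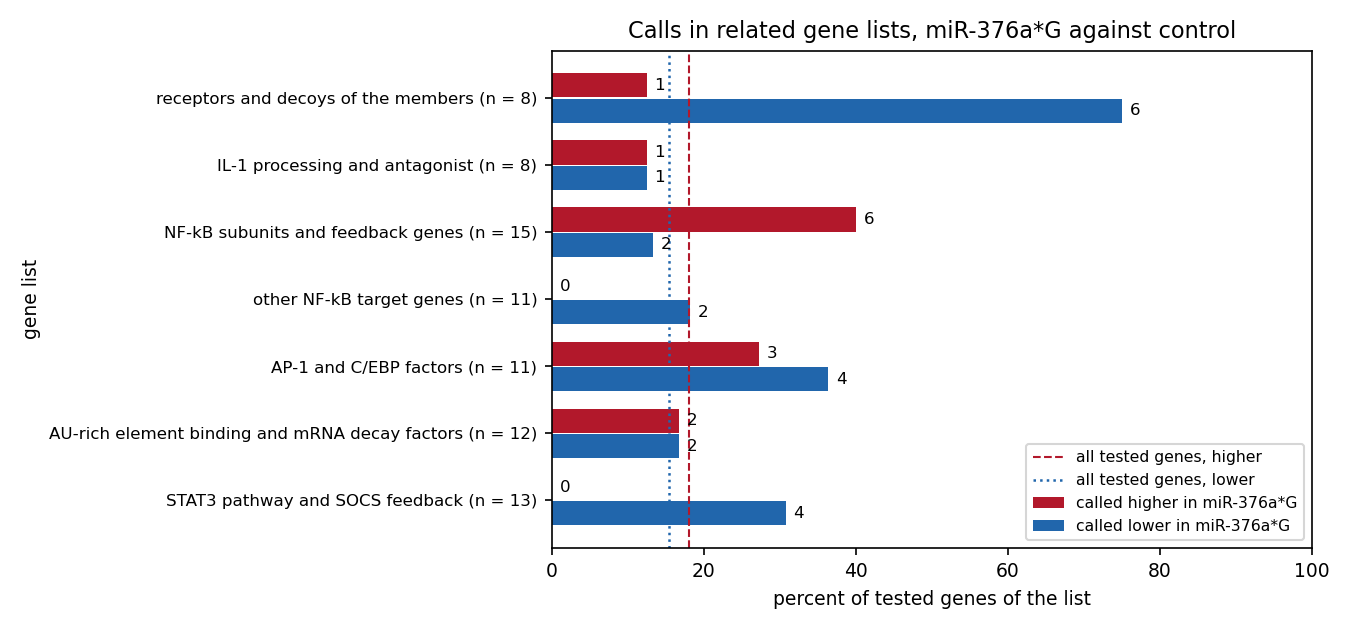
Percent of the tested genes of each list called higher (red) or lower (blue) in miR-376a*G against control, with the number of genes at each bar and the share over all tested genes as vertical lines. The receptor list has 6 of 8 genes lower and the STAT3 list 4 of 13 lower, while 6 of 15 NF-kB subunit and feedback genes are higher.

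AP-1 and C/EBP factors act on promoters of these cytokines, and their list here also held EGR1, which belongs to neither family. Of 11 tested, 3 rose and 4 fell in miR-376a*G against control (background 18.0% higher, 15.4% lower). EGR1, an immediate early gene, read 39.5, 113 and 108 for miR-376a*A, 355, 395 and 330 for miR-376a*G and 110, 63.7 and 62.2 for control, and rose by 2.23 (SE 0.39, adjusted p = 0.00242). CEBPG rose by 1.67 (adjusted p = 5.6e-05) and FOS by 0.84 (adjusted p = 0.0141), FOS losing its call without miR-376a*G replicate 3. FOSL2 fell by 1.16 (adjusted p = 0.00014) and kept its call under all scalings, with 1 of its 5 probe sets at 0.11. JUND, CEBPB and JUN fell by 0.38 to 0.62, calls lost after scaling to either control set, where CEBPB turned sign with the hybridisation controls. JUN lost its call in 11 of 21 alternatives in all, and JUND also lost it with probe sets averaged. The dimmer JUN probe sets differed by -0.57, -1.10 and -0.77 without overlap with control. Those of JUND differed by 0.02 to 0.29 with overlap.

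Of 12 tested genes for AU-rich element binding and messenger RNA decay factors, 2 rose and 2 fell in miR-376a*G against control, near the background of 18.0% higher and 15.4% lower. ELAVL1, which stabilises AU-rich transcripts, rose by 0.72 (adjusted p = 0.00074), a call lost after centring on medians and with probe sets averaged. KHSRP, a decay factor for them, rose by 0.90 (adjusted p = 0.00898). AUH fell by 1.22 (adjusted p = 5.1e-05) and RC3H1, which promotes decay of cytokine transcripts, fell by 0.74 (adjusted p = 0.00158), a call lost with the hybridisation controls and with probe sets averaged.

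In the interleukin-1 processing list, 8 genes were tested, and 1 rose and 1 fell in miR-376a*G against control, near the background of 18.0% higher and 15.4% lower. CASP4, an inflammatory caspase, read 92.3, 67.2 and 78.3 for miR-376a*A, 299, 353 and 312 for miR-376a*G and 54.5, 84.0 and 95.9 for control, and rose by 2.06 (SE 0.22, adjusted p = 0.00017). CASP1, which cleaves the IL1B precursor, differed by 0.47 (adjusted p = 0.065) and was not called, nor was IRAK3 (0.42, adjusted p = 0.172). IRAK2, a kinase of the interleukin-1 receptor, fell by 0.86 (adjusted p = 0.0127), a call lost after scaling to either control set, without miR-376a*G replicate 2 and with probe sets averaged.

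Most markers of other cell types were below the filter. Of 10 leukocyte and microglial markers 8 had a probe set and 2 passed the filter. Summed over the 8, signal was 70.3 to 157 for miR-376a*A, 111 to 146 for miR-376a*G and 69.7 to 141 for control. The defining markers PTPRC and CD14 were at 0.79 to 8.46 and 0.756 to 2.31. AIF1, which passed, was at 22.2 to 28.9 on miR-376a*G arrays and 8.59 to 21.6 on the others. It was not called in miR-376a*G against control (0.92, limma adjusted p = 0.0532). Without both arrays it was called higher (0.94, adjusted p = 0.0171), as 31.2% of all tested genes were. CSF1R, the other, was at 22.6 to 65.6 and not called in either setting. The part of these markers in the cytokine values was not tested. Summed endothelial markers (5 of 5 with a probe set) were 71.3 to 144, 113 to 142 and 61.0 to 167 in the same order. The 1 endothelial marker tested was PECAM1, at 38.7 to 135 over the 9 arrays (0.53 in miR-376a*G minus control, adjusted p = 0.438), while 3 of its other probe sets differed by -2.31 to -1.29 without overlap. Summed epithelial markers (4 of 4) were 41.0 to 66.6, 67.2 to 82.5 and 41.0 to 55.5, so they were highest on the miR-376a*G arrays, by a narrow margin. Of these markers only KRT8 passed the filter. It overlapped between miR-376a*G and control and was not called (0.39, limma adjusted p = 0.182). The part of the epithelial markers in the cytokine values was not tested. Of the glioma and astrocyte markers, only VIM at 2107 to 2975 and CD44 at 1475 to 2193 were bright. GFAP was at 1.48 to 5.66, S100B at 0.68 to 1.30, AQP4 at 1.73 to 11.9 and OLIG2 at 8.97 to 30.8, all below the filter. NES (32.4 to 61.6), ALDH1L1 (24.0 to 43.6) and SOX2 (10.2 to 26.4) passed it but were dim. Of the 5 glioma and astrocyte markers tested, ALDH1L1 alone was called in miR-376a*G against control (0.68, adjusted p = 0.02), a call lost in 8 of 21 alternatives, and its other probe set differed by -0.27 with overlap. CD44 was called in miR-376a*A against miR-376a*G (0.34, adjusted p = 0.0466), a call lost in 12 of 21 alternatives, and its sign turned after scaling to the hybridisation controls.

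Control probe sets differed with group. The mean log2 signal of the hybridisation controls was 7.82 to 7.92 on miR-376a*A arrays, 7.12 to 7.29 on miR-376a*G arrays and 7.51 to 7.70 on controls, and the poly-A controls gave 7.64 to 7.71, 7.38 to 7.56 and 7.76 to 7.85. The log2 ratio of 3′ to 5′ GAPDH probe sets, a measure of RNA integrity, was -0.174 to -0.102, -0.193 to -0.142 and -0.12 to -0.075. Their part in the results was not tested.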

How the data were processed

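Genes were measured on 9 arrays. The authors deposited 1 linear intensity value per probe set, and the submitters' processing notes name GCOS 1.4.0.036. Neither the summarisation method nor the genome build is given in the sources used here. Each array's trimmed mean (2% off either end) was 100.01, so values were already scaled. Probe sets were named from the platform's table, keeping the 41097 of a single gene (1801 had several symbols and 11777 none listed); of several per gene the one with the highest mean log2 value was used. Genes above the array median on at least 3 arrays were tested on log2(signal + 1) with limma 3.58.1 in R 4.3.3 (eBayes with intensity trend, 1 coefficient per group, 6 residual degrees of freedom). The scripts were tested on simulated data. The number of arrays limits precision.

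The cytokine genes, the related lists and the alternatives were chosen with earlier results of these data known. In each list the 4 genes with the smallest p in miR-376a*G against control, plus any called there, were eligible for naming, and the 5 genes most like CSF3 were named; the cluster neighbours of CXCL1 and defining markers were added afterwards. Alternatives changed scaling, pseudocount, filter, arrays, block, weights, groups and probe set summary.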

Additional observations from a re-analysis of the deposited data

How the results depend on the processing

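No gene was called between miR-376a*A and control with all arrays, but 5268 were called without both arrays that stood apart and 5513 with array weights. For miR-376a*G against control the 4205 calls became 6509 after scaling to the hybridisation controls, 7066 without both arrays and 7865 with weights. Between both active duplexes, miR-376a*A set against miR-376a*G, the 4804 calls became 8851, 7508 and 7866 in the same settings. Other alternatives kept these counts within 1.5 times. The miR-376a*A minus control differences of the cytokine genes, none of them called, changed sign as follows. After scaling to the hybridisation controls CSF3 was -0.19, CXCL3 -0.10, IL6 -0.26 and IL1A -0.10; after scaling to the poly-A controls CXCL8 was 0.04 and LIF 0.10; LIF was 0.02 with quantile normalization. IL1A was -0.18 without both arrays, -0.01 with weights and -0.01 with probe sets averaged. Leaving out 1 array at a time gave -0.23 to 0.62 for CSF3, -0.01 to 0.35 for CXCL3, -0.18 to 0.04 for CXCL8, -0.08 to 0.13 for IL6, -0.14 to 0.05 for LIF and -0.09 to 0.33 for IL1A. The causes were not tested. Between miR-376a*G and control all 9 genes stayed higher in all 21 alternatives, a description only, since they were chosen on those arrays. Replicate numbers did not pair the samples (same-numbered deviations correlated at -0.881 to 0.046, and arrays did not correlate best with their own number); with the replicate block 0, 2936 and 3453 genes were called, listed as miR-376a*A against control, miR-376a*G against control, and one duplex against the other. With 3 arrays a group, dim genes such as CSF3R are poorly resolved.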
